A study of Mus musculus with 23 samples.

Results

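Receptors for glutamate, GABA and glycine set which synaptic input a neuron can answer, and their transcripts were examined here in ribosomes tagged in ChAT-Cre cells of the mouse spinal cord. The members were chosen by gene name: symbols made of Gria, Grik, Grid or Grin with a digit, Grm with 1 digit, Gabr with a GABA-A subunit letter, or Glra and Glrb, without a hyphen. The rule took 51 of 38924 genes in every library's table. They comprise 4 AMPA, 5 kainate, 2 delta, 7 NMDA and 8 metabotropic glutamate receptor genes, 16 GABA-A and 3 GABA-A rho subunits and 5 glycine receptor subunits. The remaining member, Grid2ip, encodes a synaptic scaffold protein and is no subunit, but its symbol meets the rule.

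The mice were 2 weeks old, on a background given as B6.CgxB6.129, and all carried 1 copy of a haemagglutinin-tagged Rpl22 (Rpl+/-), a ribosomal protein whose tag is expressed after Cre recombination. The 5 wild-type Cre libraries (Chat+/-;C201R+/+) and the 6 mutant Cre libraries (Chat+/-;C201R+/-) came from mice with Cre under the promoter of Chat, the choline acetyltransferase gene. The 6 wild-type no-Cre (Chat+/+;C201R+/+) and 6 mutant no-Cre libraries (Chat+/+;C201R+/-) are precipitates of spinal cord in which no tagged protein should be made. C201R is a change in Gars, the glycyl-tRNA synthetase gene. The mutants carry it on 1 allele as a model of inherited neuropathy, and the series title places these mice before onset. ChAT-Cre marks all cholinergic cells of the cord, motor neurons among them, so the tagged population is not motor neurons alone. In precipitates of whole tissue, fewer cells of a type and less RNA per cell cannot be told apart. Whether libraries come from different animals is not said in the labels, and every p-value here reflects only how far libraries of a group spread.

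Library quality limited what could be read. Between 50.6% and 95.6% of counts fell on ribosomal RNA-like genes, which left 594362 to 6237380 other counts per library. Members held 596 to 20521 of these. All 11 motor neuron and cholinergic markers measured were higher with Cre. Chat averaged 56.1 ± 11.8 CPM (SD, n = 5), where CPM is counts scaled to a common library size, in the wild-type Cre group and 33.7 ± 13.7 (n = 6) in the mutant one, while the no-Cre groups held 2.25 ± 1.88 and 3.12 ± 2.64 (n = 6 each). Gars, whose allele is a base change that does not remove the transcript, stood at 57.9 ± 10.5 and 70.1 ± 21.4 CPM with Cre and 18.0 ± 10.7 and 18.4 ± 5.37 without, and so its level does not check the genotype labels. Glial, vascular, and other neuronal markers were lower with Cre or not called: 9 of 9 oligodendrocyte, 6 of 6 oligodendrocyte precursor, 8 of 9 astrocyte, 6 of 8 microglia, 5 of 7 endothelial and pericyte, 3 of 7 inhibitory neuron and 2 of 5 excitatory interneuron markers fell. Replicates 4 and 6 of mutant Cre stood apart. Both carry the leading number 18405 in their titles, whose meaning the labels do not give, and their summed motor neuron markers were 322 and 211 CPM against 566 to 686 in the other mutant Cre libraries. Their summed glial markers were 5773 and 7665 CPM, against 712 to 3427 in the other 9 Cre libraries, with replicate 2 of wild-type Cre the highest of those.

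Ionotropic glutamate receptors carry fast excitation: AMPA receptors most of the current, NMDA receptors a slower calcium-permeable current that needs GluN1 with a GluN2 or GluN3 partner, and kainate receptors a modulatory one. GABA-A and glycine receptors are chloride channels that carry fast inhibition, and in the spinal cord glycine is a main inhibitory transmitter to motor neurons. Metabotropic glutamate receptors act through G proteins, and delta receptors bind secreted cerebellins and organise synapses rather than pass current in the usual way.

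The comparison of Cre with no-Cre precipitates asks which of these receptor transcripts were higher or lower with tagged ribosomes than in background precipitates. A member called lower or not called is not shown to be absent from the tagged cells, and levels with Cre can include background. Averaged over both genotypes, 11 members were higher and 9 lower with Cre by edgeR's quasi-likelihood test at a Benjamini-Hochberg adjusted p under 0.05, and 24 of the 44 that passed the filter on low counts were not called. Over all 14468 genes tested 56.8% were called, 22.1% higher and 34.7% lower, against 45.5% of the members tested, and the median log2 difference was -0.28 over all genes and -0.01 over these members. Scaled by library totals alone, 11 members were higher and 1 lower, with the all-gene median at 0.39 and 23.4% of all genes called higher and 9.31% lower. Members rose and fell within each of the AMPA, NMDA and GABA-A classes, so subunits of 1 receptor family separated. In this average 2 of 5 kainate and 1 of 7 metabotropic receptor genes tested fell, and 2 of 5 glycine receptor genes rose. The other genes of these 3 classes were not called, so these few calls describe no class as a whole. GluN1 and GluN3B, the glycine receptor pair Glra1 and Glrb, and the GABA-A subunit Gabrq stood among the rises, and Grik3, Gabra4, Grin2b and Grm5 among the falls. Markers of other cells moved with this comparison: summed inhibitory neuron markers were 23.8 to 68.8 CPM in Cre and 91.2 to 177 CPM in no-Cre libraries, astrocyte markers 158 to 681 and 710 to 1278 CPM, and excitatory interneuron markers 5.57 to 22.3 and 17.7 to 48.9 CPM. Their part in the differences of single receptor genes was not tested.

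**Figure D1:**
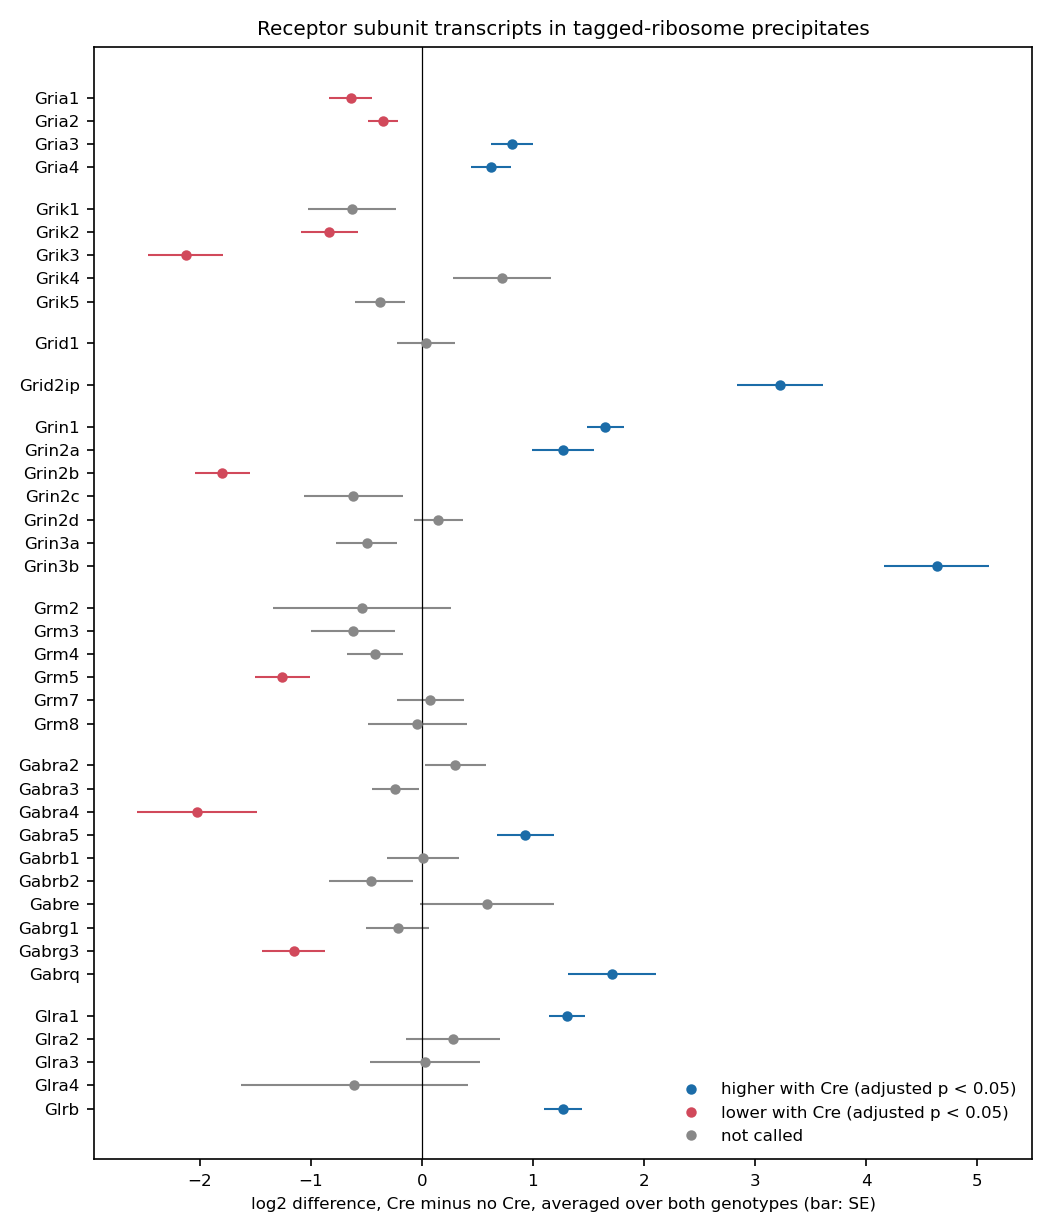
Log2 difference between Cre and no-Cre precipitates, averaged over both genotypes (x axis), for 39 members that passed the filter, grouped by receptor class (y axis); points are edgeR estimates, bars are standard errors, blue marks members called higher, red lower and grey not called. Grin3b (4.64) and Grid2ip (3.23) lie farthest to the right and Grik3 (-2.13) farthest to the left.

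Control sequence was available for some of these genes. RefSeq promoter entries (GRCm38.p6) matched 35 of the 51 members, with 43 annotated starts. Below are the 250 bases before a start for the pair of largest rises and the pair of largest falls among members whose entry overlaps no annotated exon there; they are shown so that members moving the same way can be compared upstream of their start. Grid2ip (chr5:143369824-143370073, plus strand, before a start inside the gene), Gabrq (chrX:72824928-72825177, plus), Grik3 (chr4:125490446-125490695, plus) and Gria2 (chr3:80802836-80803085, minus) are written 5′ to 3′ on the gene's strand. Capitals mark motifs on either strand, found without overlap from the 5′ end. The GC box, bound by Sp-family factors, was searched as GGGCGG. The TATA box, which positions the start of transcription in some promoters, was searched as TATAAA. A core shared by many homeodomain factors, several of which specify spinal neurons, was searched as TAATTA. The E-box, bound by basic helix-loop-helix factors and searched as CANNTG, was counted but is not marked in capitals.
Grid2ip: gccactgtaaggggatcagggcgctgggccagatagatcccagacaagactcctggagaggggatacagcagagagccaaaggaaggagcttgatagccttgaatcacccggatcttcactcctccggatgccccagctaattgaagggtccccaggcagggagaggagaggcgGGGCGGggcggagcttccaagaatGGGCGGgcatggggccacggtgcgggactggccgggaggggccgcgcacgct
Gabrq: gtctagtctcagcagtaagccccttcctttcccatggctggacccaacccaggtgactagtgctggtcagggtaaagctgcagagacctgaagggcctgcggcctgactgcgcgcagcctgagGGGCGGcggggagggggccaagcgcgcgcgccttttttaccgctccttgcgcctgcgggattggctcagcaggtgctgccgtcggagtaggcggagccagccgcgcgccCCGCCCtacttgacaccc
Grik3: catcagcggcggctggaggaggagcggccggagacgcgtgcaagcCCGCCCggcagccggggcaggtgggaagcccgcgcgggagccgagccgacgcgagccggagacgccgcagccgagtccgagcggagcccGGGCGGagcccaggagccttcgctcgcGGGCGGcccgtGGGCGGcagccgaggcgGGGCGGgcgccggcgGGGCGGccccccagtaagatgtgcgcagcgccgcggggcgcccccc
Gria2: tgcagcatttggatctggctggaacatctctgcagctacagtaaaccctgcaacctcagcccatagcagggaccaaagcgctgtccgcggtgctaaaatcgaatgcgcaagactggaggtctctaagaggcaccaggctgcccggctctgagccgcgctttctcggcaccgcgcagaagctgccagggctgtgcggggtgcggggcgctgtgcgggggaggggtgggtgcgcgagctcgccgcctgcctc
The Grik3 window held 6 GC boxes and 42 CpG dinucleotides, Grid2ip and Gabrq held 2 GC boxes each, and none of the 3 motifs in capitals was in the Gria2 window. A GC box occurred in 48.8% of the 43 member windows (21 of them) and in 32.7% of all 32851 windows in the table. A TATA box occurred in 11.6% against 12.4%, and a homeodomain core in 2.33% against 4.84%. An E-box occurred in 46.5% of the member windows (20 of 43) and in 66.2% of all windows. It was in 6 of 8 windows of risen and 2 of 5 of fallen members. Windows of members not called held it in 7 of 24 cases, and those of untested members in 5 of 6. A match is a description of letters and not of factor binding.

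NMDA receptor genes showed the largest rise of any member. Grin1 encodes GluN1, the subunit every NMDA receptor contains. It stood at 212, 118, 169, 156 and 183 CPM in the 5 wild-type Cre libraries, at 82.0 to 147 (median 128) in mutant Cre, at 39.1 to 58.5 (median 42.8) in wild-type no-Cre and at 23.9 to 59.3 (median 46.5) in mutant no-Cre libraries. Every Cre library lay above every no-Cre library. The log2 difference was 1.65 (SE 0.17, edgeR adjusted p = 4.85e-09), with 1.94 in wild type and 1.39 in mutants. Grin3b encodes GluN3B, a glycine-binding subunit known for its expression in motor neurons. It stood at 17.7, 6.98, 11.5, 13.2 and 15.5 CPM in wild-type Cre and at 1.32 to 9.002 (median 6.81) in mutant Cre, and at 0 to 1.41 (median 0.285) and 0 to 0.708 (median 0.171) without Cre. Only the lowest Cre library, replicate 6 of the mutants, and the highest no-Cre library, replicate 6 of wild type, overlapped. The difference was 4.64 (SE 0.48, adjusted p = 6.35e-09), over 1719 counts with and 71 without Cre. Exons of Grin3b (chromosome 10, 79970715 to 79977190, GENCODE M21 on GRCm38) share 1059 of its 3296 exon bases with Tmem259 on the other strand. Since the sources name no strand setting, the reads of such a pair cannot be told apart. Tmem259 was also higher with Cre, by 0.68 (SE 0.24, adjusted p = 0.0192).

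The GluN2 partners separated. Grin2a (GluN2A) was at 13.3, 15.4, 18.6, 17.6 and 14.2 CPM in wild-type Cre, 11.6 to 22.6 (median 13.8) in mutant Cre, 0.362 to 8.56 (median 5.12) in wild-type no-Cre and 4.45 to 15.3 (median 6.89) in mutant no-Cre libraries. It rose by 1.27 (SE 0.28, adjusted p = 0.00039), a call lost with the title number as a block (adjusted p = 0.091). The highest no-Cre value, in the shallow replicate 5 of the mutants, lay within the Cre range. Grin2b (GluN2B, the partner typical of early development) was at 8.93, 18.6, 7.78, 15.5 and 19.6 CPM in wild-type Cre and 5.84 to 22.5 (median 12.1) in mutant Cre, against 23.8 to 79.8 (median 53.7) and 17.7 to 61.0 (median 37.8) without Cre. It fell by 1.79 (SE 0.25, adjusted p = 8.57e-07), and wild-type groups did not overlap while mutant groups did. With totals only Grin2b was no longer called (-1.23, adjusted p = 0.0609). Grin2c, Grin2d and Grin3a were not called, at -0.61, 0.15 and -0.49.

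Per unit of length the makeup of the class differed accordingly. Expressed as counts per kilobase of 1 fixed effective length, Grin2a made up 46.2% ± 6.88 (SD, n = 5) of the GluN2 total in Cre libraries of wild type and 46.4% ± 5.83 (n = 6) in those of mutants, and 9.75% ± 5.28 and 18.6% ± 8.56 (n = 6 each) without Cre. Grin2b made up 29.3% ± 8.83 and 28.0% ± 7.13 with Cre and 73.5% ± 8.81 and 62.2% ± 13.3 without. On this scale no Cre library overlapped a no-Cre library for either share. With the deposited TPM, whose length is estimated in each library, they overlapped. The no-Cre means became 19.3% and 32.4% for Grin2a and 60.8% and 36.9% for Grin2b. The median effective length of Grin2b was 6.05 kb in Cre and 16.3 kb in no-Cre libraries. On the fixed length, Grin1 held 73.2% ± 3.15 and 73.9% ± 3.71 of all NMDA subunit signal with Cre and 48.7% ± 6.92 and 50.5% ± 10.7 without. With TPM its ranges overlapped, at 69.9% to 79.7% with Cre and 37.7% to 72.9% without. Grin3b held 11.9% ± 2.09 in wild-type Cre and 7.37% ± 2.83 in mutant Cre, against 0.84% ± 1.05 and 0.543% ± 0.632 without Cre.

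**Figure D2:**
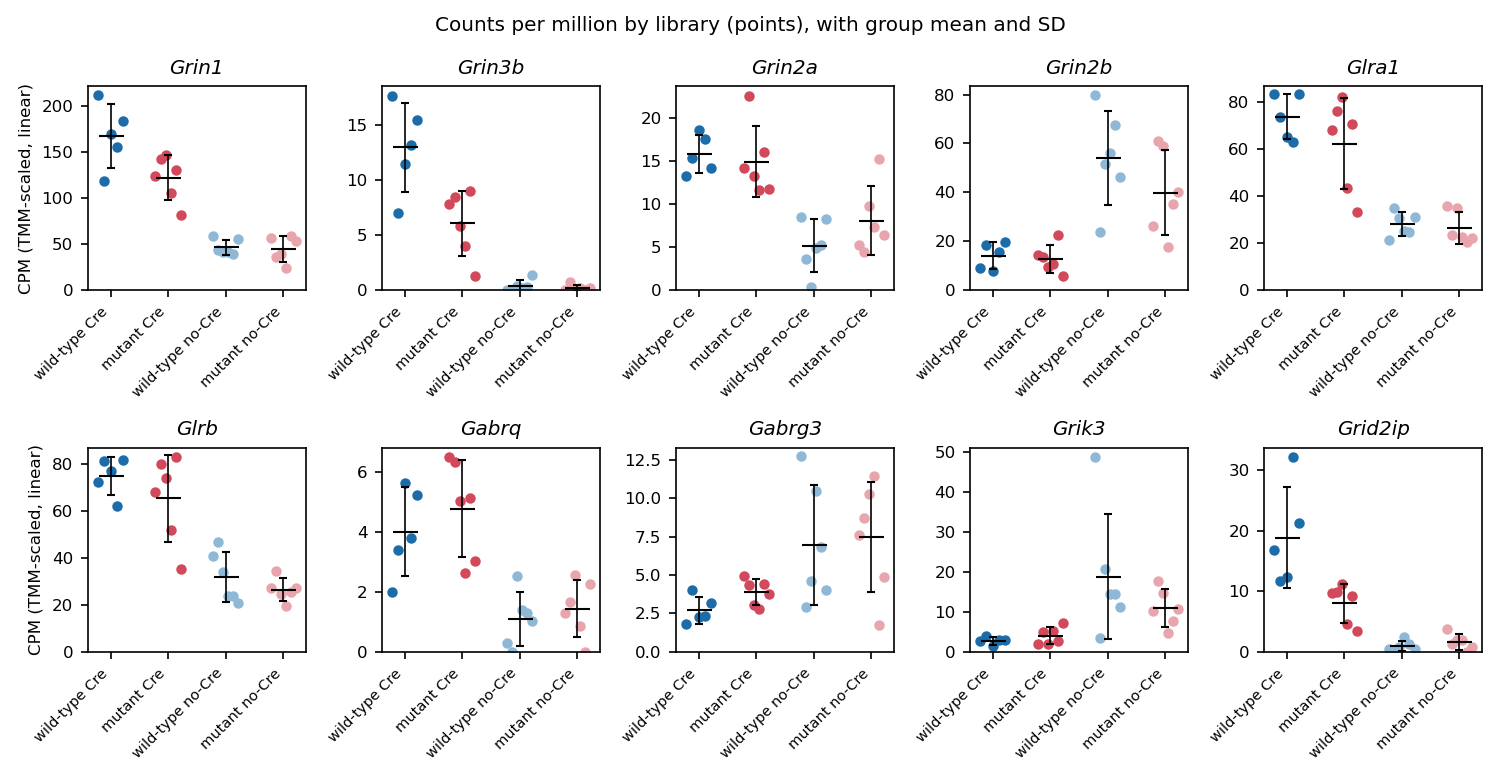
TMM-scaled CPM (linear y axes from 0) of 10 members in each library; points are libraries, the bar and whiskers are the group mean and SD, and the x axis gives the 4 groups. Cre libraries sit above no-Cre libraries for Grin1 without overlap, while Grin2b, Gabrg3 and Grik3 sit lower with Cre.

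AMPA receptor genes split into a rising and a falling pair. Gria3 (GluA3) was at 30.6, 44.4, 42.4, 31.4 and 42.3 CPM in wild-type Cre, 18.7 to 50.3 (median 35.8) in mutant Cre, and 18.2 to 25.9 (median 23.5) and 7.76 to 25.3 (median 19.9) without Cre. It rose by 0.81 (SE 0.18, adjusted p = 0.000513); in mutants alone the call (0.81, adjusted p = 0.0437) was lost when any of 6 libraries was left out (adjusted p 0.0681 to 0.102). Replicates 4 and 6 of mutant Cre fell inside the no-Cre range, and the wild-type groups did not overlap. Gria4 (GluA4) was at 27.8, 37.4, 31.5, 29.6 and 29.5 CPM in wild-type Cre and 19.6 to 34.8 (median 27.5) in mutant Cre, against 9.58 to 25.1 (median 17.5) and 12.7 to 28.1 (median 20.5). Only mutant groups overlapped. The rise was 0.63 (SE 0.18, adjusted p = 0.0042), and the call was lost with libraries scaled by totals only and with the title number as a block. Gria1 (GluA1) fell by 0.64 (SE 0.19, adjusted p = 0.00662), from 13.8 to 21.9 CPM (median 15.8) in wild-type no-Cre and 8.84 to 17.6 (median 13.3) in mutant no-Cre to 3.17, 10.7, 10.4, 14.9 and 6.37 in wild-type Cre and 9.002 to 10.7 (median 9.78) in mutant Cre libraries. Gria2 encodes GluA2, whose RNA editing makes AMPA receptors impermeable to calcium. It was at 28.8, 34.0, 37.7, 37.3 and 29.0 CPM in wild-type Cre and 27.9 to 43.0 (median 33.3) in mutant Cre, against 36.1 to 54.3 (median 43.7) and 30.0 to 48.2 (median 42.7) without Cre, with overlap in both genotypes. The fall was 0.35 (SE 0.13, adjusted p = 0.0274). This call was lost under 21 of 35 alternatives, among them leaving out any of 13 libraries (adjusted p 0.0578 to 0.259): replicates 1, 2 or 5 of wild-type Cre, each of mutant Cre, 5 or 6 of wild-type no-Cre and 2 or 3 of mutant no-Cre. The call of Gria1 was lost under 6 of 35 alternatives, none a single library left out. Among them were dropping the filter, leaving out title number 18405 and leaving out the 4 Cre libraries highest in glial markers. Using only the deeper or only the shallower no-Cre libraries also ended the call of Gria1. With libraries scaled by their totals only, Gria1 and Gria2 stood at 0.11 and 0.24, not called.

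Within the AMPA class, shares per kilobase do not depend on how libraries are scaled. Gria3 and Gria4 made up 41.0% ± 4.18 and 34.0% ± 2.23 of the class in wild-type Cre (n = 5) and 38.9% ± 4.95 and 32.4% ± 0.849 in mutant Cre libraries (n = 6). Without Cre they made up 30.9% ± 4.85 and 23.1% ± 7.42 in wild type, and 26.0% ± 5.94 and 29.8% ± 2.47 in mutants. Gria2 made up 18.7% ± 2.15 and 20.8% ± 3.03 with Cre, against 31.2% ± 2.51 and 31.5% ± 7.39 without. Gria1 made up 6.32% ± 3.02 and 7.87% ± 1.77 with Cre, against 14.9% ± 3.26 and 12.7% ± 1.68 without. The effective length of Gria3 ran from 3.19 to 3.98 kb in Cre and from 4.19 to 5.02 kb in no-Cre libraries, so its share also moves with the length used.

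**Figure D3:**
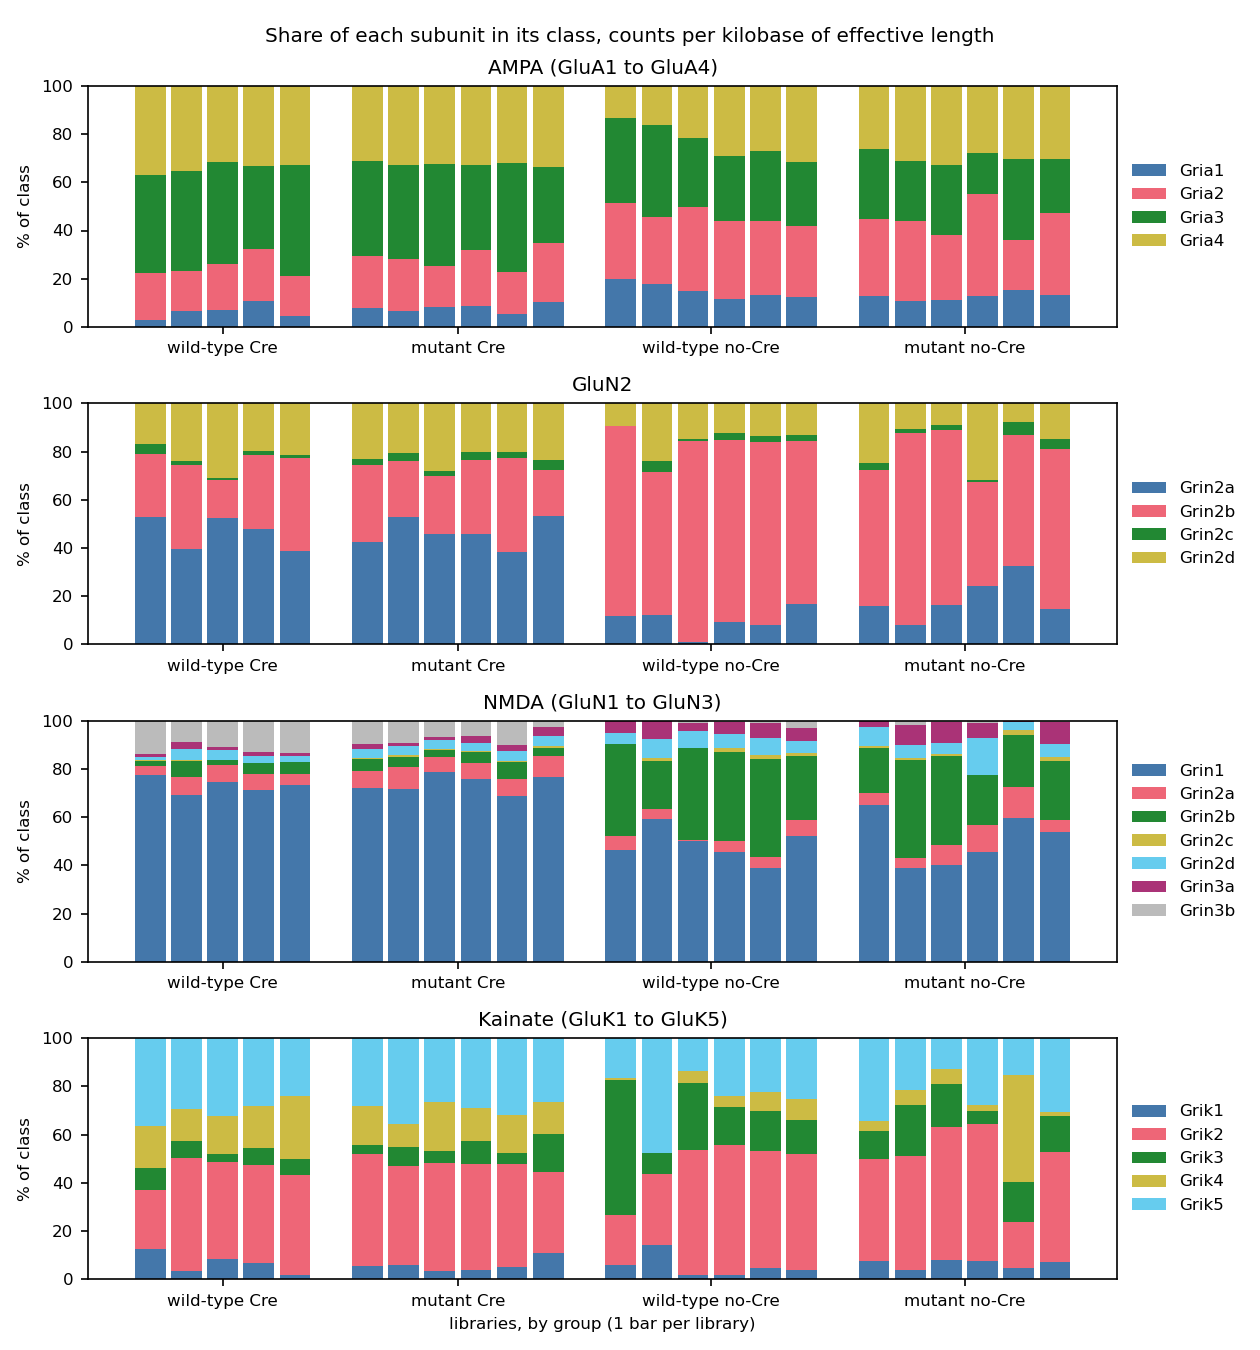
Share of each subunit in its class (y axis, percent of counts per kilobase of effective length) in every library (1 bar each), grouped along the x axis by wild-type Cre, mutant Cre, wild-type no-Cre and mutant no-Cre. Grin2a takes 38.2% to 53.2% of GluN2 in Cre libraries and at most 32.4% in no-Cre libraries, and Grin1 takes 68.8% to 78.9% of the NMDA total with Cre and 38.9% to 65.0% without. With the deposited TPM (not drawn) the Cre and no-Cre ranges of both shares overlapped.

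Kainate receptor genes had no rise among the 5 measured. Grik3 (GluK3, a low-affinity subunit) was at 2.58, 3.99, 1.32, 3.02 and 2.84 CPM in wild-type Cre and 1.89 to 7.15 (median 3.70) in mutant Cre, against 3.35 to 48.7 (median 14.5) and 4.74 to 17.6 (median 10.4) without Cre. It fell by 2.13 (SE 0.34, adjusted p = 6.91e-06). The highest Cre value belonged to replicate 6 of the mutants. Grik2 (GluK2, the subunit with the highest level of the class) was at 2.38, 8.69, 5.63, 5.67 and 6.14 CPM in wild-type Cre and 5.02 to 8.47 (median 7.999) in mutant Cre, against 3.77 to 16.6 (median 12.6) and 2.94 to 16.0 (median 12.8) without Cre. Its groups overlapped in both genotypes, and it fell by 0.83 (SE 0.26, adjusted p = 0.00729). This call was lost under 4 of 35 alternatives, none a single library left out; with totals only Grik2 stood at -0.24 (adjusted p = 0.758). Grik5 (GluK5, a high-affinity partner subunit) was at 4.37, 6.89, 5.63, 4.91 and 4.44 CPM in wild-type Cre and 4.30 to 9.17 (median 6.34) in mutant Cre, against 4.22 to 9.26 (median 7.91) and 2.94 to 12.8 (median 8.38) without Cre. It was not called (-0.38, SE 0.23), and neither were Grik1 (-0.63) and Grik4 (0.72).

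The delta receptor gene Grid1 (GluD1) was at 3.57, 6.58, 4.14, 6.05 and 2.84 CPM in wild-type Cre and 5.71 to 7.99 (median 7.13) in mutant Cre, against 1.96 to 8.00 (median 5.77) and 3.44 to 14.7 (median 4.48) without Cre, and was not called (0.04, SE 0.26). The scaffold gene Grid2ip was at 16.9, 11.7, 12.4, 32.2 and 21.3 CPM in wild-type Cre and 3.39 to 11.3 (median 9.46) in mutant Cre, against 0 to 2.43 (median 0.664) and 0 to 3.73 (median 1.60) without Cre. It rose by 3.23 (SE 0.39, adjusted p = 9.09e-08). Every wild-type Cre library lay above every other group, and in mutants replicate 6 with Cre lay below the highest no-Cre library. An antisense gene that shares 645 of its exon bases held 55 counts over all 23 libraries, against 2399 counts of Grid2ip in the Cre libraries.

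Metabotropic glutamate receptors were mostly not called: of 8 genes, 7 were tested and Grm5 alone passed. Grm5 (mGlu5, a receptor that couples to calcium release) was at 3.37, 5.53, 3.23, 4.16 and 2.16 CPM in wild-type Cre and 3.25 to 5.50 (median 3.95) in mutant Cre, against 6.15 to 10.9 (median 8.50) and 4.02 to 18.2 (median 10.6) without Cre. It fell by 1.26 (SE 0.25, adjusted p = 0.000104). With totals only Grm5 stood at -0.70 and was not called (adjusted p = 0.317). The wild-type groups did not overlap and the mutant groups did. Grm4, a presynaptic receptor that lowers transmitter release, stood at -0.42 (adjusted p = 0.151), and Grm2, Grm3, Grm7 and Grm8 at -0.54, -0.62, 0.08 and -0.04.

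Glycine receptor genes rose as a pair. Glra1 encodes the alpha subunit of the mature spinal receptor. It was at 83.3, 73.4, 65.1, 63.2 and 83.6 CPM in wild-type Cre, 33.2 to 82.1 (median 69.3) in mutant Cre, 21.3 to 35.1 (median 27.8) in wild-type no-Cre and 20.6 to 35.6 (median 22.95) in mutant no-Cre libraries. The rise was 1.31 (SE 0.17, adjusted p = 1.96e-07). Glrb encodes the beta subunit, which binds the scaffold gephyrin, and was at 72.4, 81.3, 77.2, 62.0 and 81.8 CPM in wild-type Cre, 35.1 to 83.1 (median 71.2) in mutant Cre, and 21.0 to 46.9 (median 28.9) and 19.6 to 34.6 (median 26.2) without Cre. It rose by 1.27 (SE 0.17, adjusted p = 4.89e-07). For both genes the wild-type groups did not overlap, and replicate 6 was the lowest mutant Cre library. Glra2, the alpha subunit typical of the embryo, was not called at 0.28 (SE 0.42), and neither were Glra3 and Glra4 (0.03 and -0.61). Glra1 made up 96.8% ± 0.903 of the alpha subunits in wild-type Cre and 93.0% ± 3.53 in mutant Cre, and already 90.0% ± 4.42 and 89.6% ± 12.8 without Cre.

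Of 16 GABA-A genes outside the rho class, 13 were tested, 3 rose and 2 fell. Gabrg3, a gamma subunit, was at 1.79, 3.99, 2.23, 2.34 and 3.18 CPM in wild-type Cre and 2.78 to 4.97 (median 4.06) in mutant Cre, against 2.93 to 12.8 (median 5.71) and 1.76 to 11.4 (median 8.18) without Cre. It fell by 1.15 (SE 0.28, adjusted p = 0.00101), and its groups overlapped. With totals only Gabrg3 was not called (-0.47, adjusted p = 0.517). Per kilobase of the fixed length, Gabrg3 made up 5.62% ± 1.96 and 8.33% ± 1.52 of the gamma subunits with Cre, against 25.6% ± 8.65 and 29.6% ± 5.41 without. Its median effective length was 3.79 kb in Cre and 6.26 kb in no-Cre libraries. With the deposited TPM the ranges of this share overlapped, at 3.52% to 13.4% with Cre and 5.44% to 50.1% without.

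Among the other GABA-A genes, Gabrq (theta) rose by 1.71 (SE 0.39, adjusted p = 0.000559). It was at 1.98, 3.38, 5.63, 3.78 and 5.23 CPM in wild-type Cre and 2.64 to 6.48 (median 5.07) in mutant Cre, against 0 to 2.53 (median 1.15) and 0 to 2.57 (median 1.48) without Cre, with overlap in wild type and none in mutants. Gabra5, an alpha subunit of extrasynaptic receptors, was at 12.5, 11.98, 4.55, 6.65 and 5.23 CPM in wild-type Cre and 4.96 to 10.7 (median 8.07) in mutant Cre, against 1.93 to 6.14 (median 4.71) and 1.73 to 6.60 (median 4.14) without Cre. Its groups overlapped, and it rose by 0.93 (SE 0.26, adjusted p = 0.00291), a call lost with the title number as a block (adjusted p = 0.139). Gabra4, another such subunit, fell by 2.02 (SE 0.54, adjusted p = 0.00232) at a low level, at most 1.48 CPM with Cre and 7.03 CPM without, and was not called with totals only (-1.19, adjusted p = 0.169). Gabra2 and Gabra3 were the most abundant alpha subunits with Cre, at 38.8% ± 6.46 and 28.3% ± 8.44 of the alpha total in wild type and 30.6% ± 4.84 and 34.7% ± 5.19 in mutants. Gabre (epsilon) was higher with Cre in mutants, at 1.59 (SE 0.48, adjusted p = 0.0179), a call lost with all 23 libraries in 1 fit (1.65, adjusted p = 0.147) and with only the no-Cre libraries over 4000000 non-ribosomal counts (1.39, adjusted p = 0.0791). In wild type it stood at -0.35 (adjusted p = 0.801), a value that rests on 1 library. Replicate 1 without Cre held 15.5 CPM, against 0 to 2.199 in the other no-Cre and 0.834 to 4.23 in the Cre libraries of wild type. Without it the wild-type difference of Gabre was 1.63 (adjusted p = 0.135) and the average, 0.59 with all libraries (adjusted p = 0.414), was called at 1.62 (adjusted p = 0.00736). With limma-voom quality weights it was 1.95 in wild type (adjusted p = 0.00573). The difference between the genotypes was not called (2.13, SE 1.22, adjusted p = 0.525). Further GABA-A genes were not called: Gabra2 (0.30), Gabra3 (-0.24), Gabrb1 (0.01), Gabrb2 (-0.46) and Gabrg1 (-0.22). Gabra2 held 26.3 CPM in replicate 2 of wild-type no-Cre, against 4.22 to 9.72 in the others, and without that library it was called higher in the average (0.57, adjusted p = 0.0365) and in wild type (0.93, adjusted p = 0.00746).

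GABA-A genes lie in clusters, and calls differed among members of 1 cluster. On chromosome 7, Gabrg3 (56716465 to 57387188) fell and its neighbour Gabra5 (57407672 to 57510059) rose. On chromosome 5, Gabra4 fell while Gabrg1, Gabra2 and Gabrb1 were not called. On chromosome X, Gabrq rose while Gabra3 and Gabre were not called in the average. Without replicate 1 of wild-type no-Cre, Gabre was called higher there by edgeR (adjusted p = 0.00736). A gene that was not called need not differ from a called neighbour.

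7 members did not pass the filter on low counts, and no fold is given for them. Summed over the 11 Cre and the 12 no-Cre libraries, Gabrd (delta, of extrasynaptic receptors) had 35 and 5 counts, Gabra6 1 and 0, Gabrp 2 and 8, and Grm6 (the mGlu6 of retinal bipolar cells) 2 and 24. The rho subunits Gabrr1, Gabrr2 and Gabrr3 had 15 and 0, 8 and 3, and 0 and 1. Replicate 1 of mutant no-Cre held 21 of the 24 counts of Grm6 without Cre, and replicate 5 held all 8 of Gabrp. Genes with counts here were thus detected, at a low level. At this depth a count of 0 over a group allows up to 3 counts, so a 0 does not show that a gene was absent.

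Levels of different genes were compared per kilobase of effective length. In the 11 Cre libraries Grin1 was highest at 38.9 ± 9.99 CPM per kilobase (SD), then Glrb at 38.0 ± 8.12 and Glra1 at 30.2 ± 7.25. Gria3 ranked 6, at 10.4 ± 2.68, and Gria4 7, at 8.50 ± 1.51. Grin3b ranked 8, at 5.34 ± 2.84, then Gria2 at 5.02 ± 0.742 and Gabra2 at 4.74 ± 1.06. Each neighbour in this order overlapped the next in range, so the order of neighbours is not resolved. With the deposited TPM the leading 3 kept their places, Gria3 ranked 5 and Grin3b 10.

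**Figure D4:**
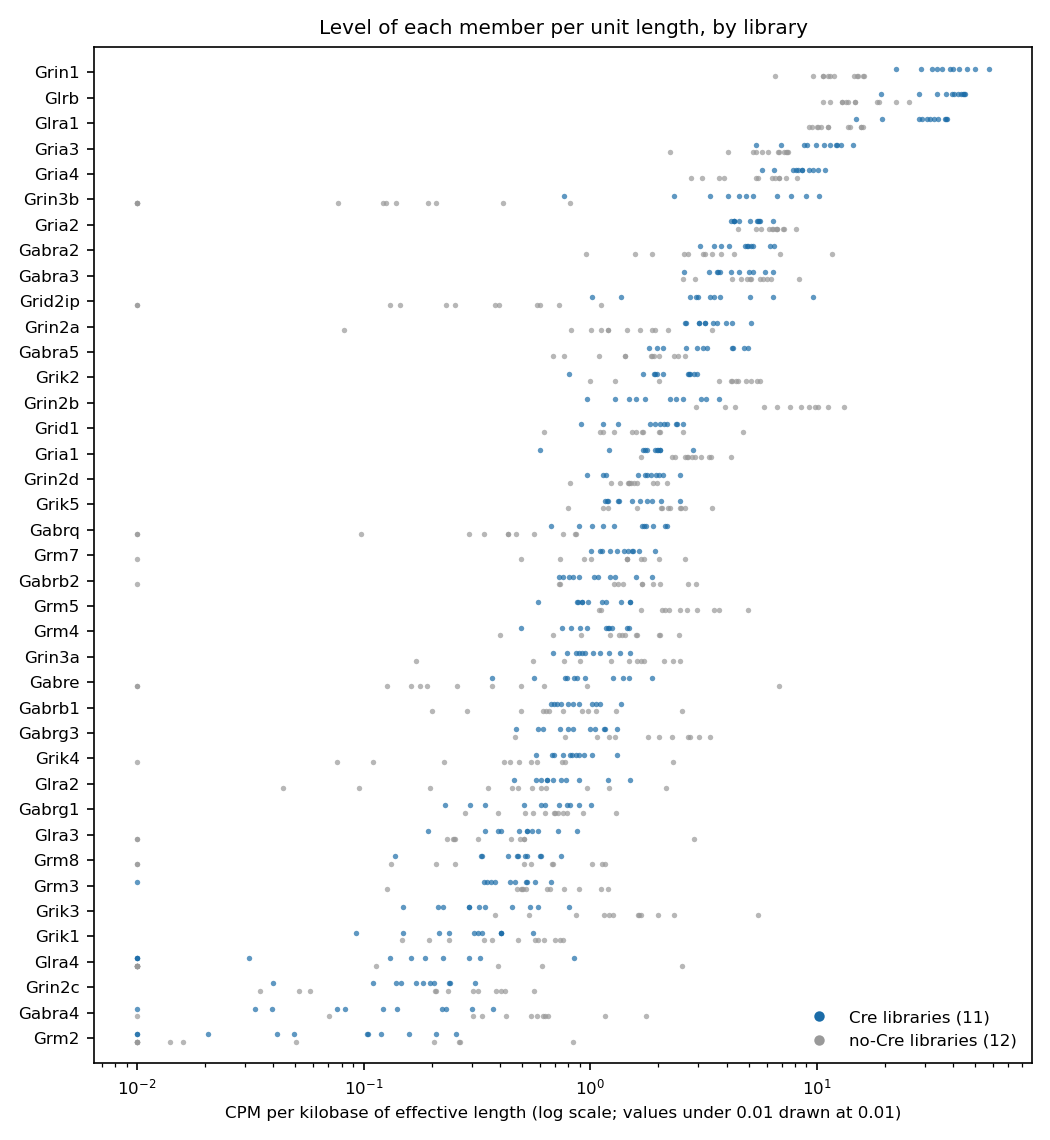
Level of 39 members with at least 50 counts, in CPM per kilobase of effective length (log x axis), ordered by their mean in Cre libraries (y axis); blue points are the 11 Cre and grey points the 12 no-Cre libraries. Grin1, Glrb and Glra1 lead, with means of 38.9, 38.0 and 30.2 in the Cre libraries.

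The rises and falls were also read separately by genotype. In wild type 12 members were higher and 6 lower of 40 tested, where 46% of all genes were called, 20% higher and 25.9% lower. With totals only these were 2 and 0, where 3.26% of all genes were higher and 4.02% lower. In mutants 11 were higher and 5 lower of 42 tested, where 33.3% were called, 14.1% higher and 19.2% lower. With totals only these were 13 and 0, where 25.6% of all genes were higher and 2.16% lower. Within a title number that holds both kinds of library (20302 and 20401 in wild type, 18405 in mutants), 10 of the 11 risen members and 9 of the 9 fallen ones kept their sign in all 3 comparisons. Gria4 was the exception, at -0.16 to 1.62. These comparisons rest on 1 to 3 libraries a side and carry no test. Their libraries also gave the calls, so a kept sign is no separate support for them. Calls within 1 genotype were less firm than the average: leaving out 1 library at a time ended those of Gabra4, Gabra5, Gabrg3 and Gabrq in wild type (adjusted p up to 0.132) and of Gabra4, Gabra5, Gabrg3, Gria3 and Grin2a in mutants (adjusted p up to 0.179). Other calls appeared when 1 library was left out. Without replicate 5 of mutant no-Cre, Grik4 (1.05, adjusted p = 0.0264) and Grin3a (-0.59, adjusted p = 0.0297) were called in the average, and Grid1 (0.83, adjusted p = 0.00948), Grik2 (-0.78, adjusted p = 0.00724) and Grik4 (1.24, adjusted p = 0.0247) in mutants. In wild type, Grik2 was called without replicate 1 or 2 of no-Cre (adjusted p = 0.0463 and 0.015) and Gria1 without replicate 4 of Cre (adjusted p = 0.0342).

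The genotype comparison asks whether the tagged cells of GarsC201R/+ mice carried other receptor transcripts before onset. With Cre, 0 of 42 members tested were called by edgeR. Over all genes 0.331% were (41 of 12399), 0.234% higher and 0.0968% lower. An unadjusted p under 0.05 was found for 2113 of all 12399 genes and for 5 of the 42 members. The largest of these differences was that of Grid2ip, at -1.25 (SE 0.33, adjusted p = 0.11), then Grin3b at -1.10 (SE 0.37, adjusted p = 0.189). Every mutant Cre library lay below every wild-type Cre library for Grid2ip. For Grin3b only replicate 2 of wild type lay within the mutant range. Grin1 (-0.47), Gabra2 (-0.48) and Grid1 (0.57) were the other 3. Grid2ip passed with DESeq2 (adjusted p = 0.0131), with limma-voom quality weights (adjusted p = 0.028), when the 4 Cre libraries with most glial signal were dropped (-1.08, adjusted p = 0.0394) and when replicate 2 of wild-type Cre was dropped (-1.40, adjusted p = 0.0241). Grin3b passed under these last settings only, at -0.93 (adjusted p = 0.0387) and -1.28 (adjusted p = 0.0473). The share of all genes called was higher there too: 3.33% (413 of 12399) with DESeq2, 7% (868) with limma-voom, 4.54% (540 of 11891) without the 4 libraries and 8.41% (1054 of 12531) without replicate 2. With the title number as a block they stood at -0.65 and -0.74, and with totals only at -0.28 and 0.02, none called. Summed motor neuron markers ranged from 591 to 810 CPM in wild-type and from 211 to 686 CPM in mutant Cre libraries, and Chat from 39.1 to 68.5 and from 13.9 to 50.9. Median log2 differences of marker lists between the genotypes with Cre were -0.59 for motor neurons, 0.56 for inhibitory neurons, 0.97 for astrocytes, 1.28 for oligodendrocytes, 1.31 for their precursors, 1.91 for endothelial cells and pericytes, and 2.40 for microglia (4 of 8 markers tested), with 0 genes of these lists called. The part of these shifts in the values of Grid2ip and Grin3b was not tested.

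Without Cre, 0 of 40 members tested were called between genotypes by edgeR, where 0% of 12588 genes were, and 0 members and 565 genes had an unadjusted p under 0.05. DESeq2 and limma-voom also called 0 genes there. The difference of the genotype effects called 0 of 44 members with edgeR, where 0.0207% of all genes were called (0.0138% higher, 0.00691% lower). An unadjusted p under 0.05 was found for 1524 of all 14468 genes and for 2 members (Grid2ip and Glra4). For Grid2ip the difference of the genotype effects was -2.01 (SE 0.74, adjusted p = 0.368). Subunit shares of wild-type and mutant Cre libraries overlapped in each class examined.

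Genes that work with these receptors were read from lists. Their counts follow, to be set beside the background of 22.1% higher and 34.7% lower. Of 15 auxiliary subunits of AMPA and kainate receptors, 2 rose and 6 fell: Cacng5 (2.96, SE 0.38, adjusted p = 2.08e-07) and Cacng3 rose (1.61), both of the TARP family that traffics AMPA receptors, and Cacng4, of the same family, fell (-1.98, SE 0.20, adjusted p = 5.63e-09), as did Neto2, which binds kainate receptors (-2.10). Of 18 excitatory scaffold genes 3 rose and 8 fell, with Dlg4 (PSD-95) at 0.92, Dlg1 (SAP97) at -1.02 and Homer2 at -2.13. Of 9 genes tested from a list of inhibitory scaffolds and receptor-associated proteins, not all of them scaffolds, 5 rose and 2 fell. Gphn, which encodes gephyrin, rose by 1.28 (SE 0.27, adjusted p = 0.000268), and Gabarap (0.96), Nlgn2 (0.79), Clptm1 (1.17) and Slitrk3 (0.76) rose as well, while Lhfpl4 (-1.91) and Shisa7 (-1.27), auxiliary proteins of GABA-A receptors, fell.

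The GABA-B receptor subunits Gabbr1 (0.38) and Gabbr2 (-0.58) were not called, while of their auxiliary proteins Kctd8 rose (2.02) and Kctd12 (-1.77) and Kctd12b (-1.80) fell, 1 higher and 2 lower of 6. The call of Kctd12 was lost under 4 of 35 alternatives, none a single library left out (adjusted p up to 0.545). That of Kctd12b was lost under 3 of 34, among them leaving out replicate 2 of mutant no-Cre (adjusted p = 0.0683). Among 6 genes of chloride and bicarbonate transport, 2 rose and 2 fell. Slc12a5 encodes KCC2, the transporter that keeps neuronal chloride low, and rose by 1.06 (SE 0.15, adjusted p = 1.21e-06). Slc12a2 encodes NKCC1, which brings chloride in, and fell by 2.22 (SE 0.23, adjusted p = 8.37e-09). The carbonic anhydrase genes Car7 (1.84) and Car2 (-2.04) moved apart. Of 9 ligands and partners listed for delta receptors, 2 rose and 3 fell. C1ql2 stood at 3.15 (SE 0.56, adjusted p = 3.15e-05) and Cbln1 at 0.96, and C1ql1 (-1.24) and C1ql3 (-1.11) fell. The C1q-like proteins are secreted relatives of the cerebellins and bind other partners too. Of 9 uptake transporters 0 rose and 6 fell, among them the astrocytic Slc1a2 (-2.81) and Slc6a11 (-2.22) and the glycinergic neuron transporter Slc6a5 (-1.99); Slc1a2, Slc1a3 and Slc6a5 are also in the marker lists. Of 3 editing genes Adarb2 fell (-2.05), and Adarb1, whose enzyme edits Gria2, stood at 0.33 (adjusted p = 0.119; 0.00951 to 0.0469 when any of 8 libraries was left out). None of the partner genes was called between genotypes with Cre. In the average Cre effect, the falls of Dlg1, Neto2, Car2, C1ql1, Slc6a5 and Adarb2 were not called with totals only. Those of Cacng4, Homer2, Slc12a2, Slc1a2 and Slc6a11 were kept under all 35 alternatives.

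RSEM's effective length, which follows the isoforms it assigns, differed between precipitates. The median was over 1.25 times longer without Cre for 13 of the 44 members tested and shorter by that factor for 0, while over all 14468 genes tested 13.1% were longer and 5.63% shorter. Gria3 was the member whose ranges did not overlap. Counts, on which the tests rest, were not corrected for this length. Among fallen members, Grin2b had medians of 6.05 kb with Cre and 16.3 kb without, and Gabrg3 3.79 and 6.26 kb. Among risen members, Glrb (1.84 and 2.74 kb) and Gabrq (2.97 and 4.67 kb) were also longer without Cre. The part of length in the differences of counts was not tested.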

How the data were processed

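Per the labels, RNA was extracted from anti-haemagglutinin precipitates of RiboTag spinal cord. Reads were aligned with Bowtie2 2.2.0 and quantified with RSEM 1.2.12, per the submitters' processing notes. For genome build, annotation and strand setting, nothing is given in the sources used here. The deposited tables give per gene expected counts, not normalised, beside TPM, FPKM and effective length. The deposited TPM entered 1 alternative; the deposited FPKM was left aside.

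Rounded expected counts were tested with edgeR 4.0.16 under R 4.3.3 (filterByExpr thresholds 10 per library and 15 in total, TMM factors, quasi-likelihood tests, Benjamini-Hochberg over all genes tested, threshold 0.05). The average Cre effect and the difference of the genotype effects used all 23 libraries, and other comparisons only the groups compared. Differences are log2, and the standard error is the log2 difference divided by the root of F. CPM is taken over TMM-scaled totals, ribosomal RNA included. Levels and shares per kilobase divide by the median effective length of the Cre libraries. The scripts were tested on simulated data. Positions come from GENCODE M21 (GRCm38) by identifier, which matched 37607 of 38924 IDs and all 51 members. Python 3.11.15 made the descriptions.

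The members and the partner and marker lists were chosen with earlier results of these data known. Genes were named by a rule: in each receptor class the 3 with the smallest p in the average Cre effect and the one highest per kilobase, and up to 3 of each partner list by p. Further members are given to account for the whole set, and further partner genes (Cacng3, Gphn, Slitrk3, Lhfpl4, Shisa7, Gabbr1, Gabbr2, Car7, Cbln1, C1ql3) and Tmem259 were chosen after their values were seen. Over 55 pairs of replicates within a group, chi-square divided by its degrees of freedom was 9.15 or more. None of these pairs thus looked like 1 library read again. Pairs across groups were not compared, and separate libraries of 1 animal could pass. Alternatives were RLE factors, library totals only, leaving out ribosomal RNA-like genes, DESeq2 1.42.0, limma-voom (limma 3.58.1) with quality weights, dropping the filter, filtering at 5 CPM, blocking on the title number, leaving out each library, number 18405 or the 4 glial-high Cre libraries, and all 23 libraries in one fit. Using only no-Cre libraries over or under 4000000 non-ribosomal counts was chosen after seeing the data. Results of some members and of 1 partner gene are not reported here; they stay in the counts, medians and class totals.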

Additional observations from a re-analysis of the deposited data

Results flagged for a closer look

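Libraries far from the rest of their group were looked for in 216 sets of libraries (levels of members tested and of Chat and Gars, and subunit shares), and 21 were found. For normally distributed values chance would mark about 1 set in 20. Many values here lie near 0 and the shares reuse the same counts, so the chance rate of these sets is not known. In the no-Cre groups Chat was at 6.01 CPM in wild-type replicate 2, against 1.18 to 2.18 in the others, and at 8.22 CPM in mutant replicate 5, against 1.06 to 3.24. Grin3b was at 1.41 CPM in wild-type no-Cre replicate 6 (others 0 to 0.362) and at 0.708 CPM in mutant no-Cre replicate 2 (others 0 to 0.216), and its share of NMDA subunits in the former was 2.84% (others 0% to 0.941%). In wild-type no-Cre replicate 2 the share of Gabra2 among alpha subunits was 50.4% (others 20.3% to 29.2%). In the same library Gabra2 was at 26.3 CPM (others 4.22 to 9.72). Other wild-type no-Cre values far from the rest were those of Gabre in replicate 1, at 15.5 CPM (others 0 to 2.199), Grm2 in replicate 3, at 2.65 CPM (others 0 to 0.846), Grin2d in replicate 5, at 5.70 CPM (others 4.22 to 4.61), and Glra4 in replicate 6, at 3.56 CPM (others 0 to 0.552).

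In mutant no-Cre libraries Gabra4 was at 7.03 CPM in replicate 1 (others 0 to 2.59). Glra2 was at 6.47 CPM in replicate 4 (others 0.287 to 1.92), where the share of Glra1 among alpha subunits was 64.3% (others 90.5% to 97.9%). The same library held Glra3 at 4.96 CPM (others 0 to 0.885) and Glra4 at 0.863 CPM (others 0). Replicate 5, which had 596 member counts in all, held Grid1 at 14.7 CPM (others 3.44 to 5.31) and Grik4 at 8.81 CPM (others 0.420 to 2.22). With Cre, replicate 4 of wild type held Gabrb1 at 4.01 CPM (others 1.97 to 2.48) and Glra4 at 0.227 CPM (others 0 to 0.0439), and replicate 6 of the mutants held Glra4 at 1.19 CPM (others 0.183 to 0.458).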

How the results depend on the processing

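The choice of no-Cre libraries by depth was made after seeing the data. Calls in the average Cre effect were kept under all 35 alternatives for Grin1, Grin3b, Grid2ip, Glra1, Glrb, Gabrq, Gria3 and Grik3. Scaling by totals only moved the median of all genes to 0.387 in the average, 1.128 in mutants and 0.791 between genotypes with Cre, and left 1 member lower in the average (9.31% of all genes lower), 2 higher and 0 lower in wild type (3.26% and 4.02%) and 0 lower in mutants (2.16%); Gria1 (0.11), Gria2 (0.24) and, in mutants, Gabrg3 (0.15) changed sign, as did Gabre in wild type with limma-voom (1.95). Shares of all genes follow in brackets. Members lower in the average were 5 without a filter (26.2%), without number 18405 (31.1%), and with no-Cre libraries under 4000000 non-ribosomal counts (24.4%). Members lower in wild type were 11 with limma-voom (36%), 2 without a filter (13.8%) and 2 with those no-Cre libraries (19.5%). In mutants they were 12 with limma-voom (30.2%), 3 without number 18405 (18.2%), 3 without the 4 glial-high libraries (17.9%) and 2 with those no-Cre libraries (14.6%), and 4 were higher at 5 CPM (16.6%). Between genotypes with Cre, DESeq2 called 1 member (3.33%), limma-voom 1 (7%) and the fit without the 4 glial-high libraries 2 (4.54%), and limma-voom called 1 in the difference of genotype effects (1.17%). The cause was not tested.

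Leaving out 1 library gave 11 to 13 higher and 7 to 10 lower in the average, 10 to 13 and 3 to 7 in wild type, 8 to 13 and 3 to 6 in mutants, and 0 to 2 between genotypes with Cre, where the 2 came without replicate 2 of wild-type Cre (8.41% of all genes, against as few as 0.0779% without another library). The lowest counts came without replicates 1 or 3 of wild-type Cre or 4 of wild-type no-Cre, and without replicates 2, 3 or 5 of mutant Cre or 1 or 4 of mutant no-Cre. In these fits 20.7% to 25.4% of all genes were higher and 30.2% to 35.8% lower in the average. The shares were 16.3% to 24% and 20.8% to 29% in wild type, and 11.2% to 20.3% and 15% to 18.4% in mutants. With deposited TPM, no-Cre shares became 14.6% (Gria1, mutant), 36.2% (Gria2, wild type), 62.2% (Grin1, wild type), 19.3% and 32.4% (Grin2a, wild type and mutant), 60.8% and 36.9% (Grin2b), 31.9% (Gabra3, wild type) and 20.8% (Gabrg3, mutant). The share of Gria4 in mutant Cre became 31.4% and Gria3 ranked 5. No paired analysis was possible because the replicate numbers used here follow accession order and mark no pairs. The title number as a block could not be fitted in mutants or between genotypes without Cre. At 596 to 20521 member counts per library, differences in the 7 untested members were not detectable.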
